A study of Homo sapiens with 12 samples.

Results

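Replication-independent variant histones are the histone proteins whose genes are transcribed throughout the cell cycle, in contrast to the clustered histone genes that supply new chromatin during DNA replication. Here they are 8 genes: H1-10, H2AX, H2AZ1, H2AZ2, H2AJ, MACROH2A1, H3-3A and H3-3B. Every probe set that the array annotation pairs with one of these symbols was taken, which gave 31 of 54613 probe sets. Of these, 23 name 1 member alone, and they cover 7 of the 8 genes: 1 for H1-10, 4 each for H2AX, H2AZ2 and H2AJ, 2 for H2AZ1, 7 for MACROH2A1 and 1 for H3-3A. The other 8 name H3-3A and H3-3B together, 4 of them also with the microRNA gene MIR4738 and 4 also with the pseudogene H3P6, so H3-3B has no value of its own.

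RNA came from INA-6, an established human myeloma line that needs interleukin-6 to grow, on Affymetrix HG-U133 Plus 2.0 arrays, which read a gene through sets of short probes. There were 4 arrays after SB590885, an inhibitor of the kinase Raf, 4 after PD325901, an inhibitor of MEK, the kinase that Raf activates, and 4 after the solvent DMSO. The medium of all 3 groups, RPMI1640, held 2 ng/ml interleukin-6 and 10% serum. The sources used here state neither doses nor treatment times, so the inhibitors are compared as applied, in 1 cell line. Values are log2 expression values, so a difference of 1 is a doubling of the signal, and a level is never set against that of another probe set.

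DNA in the nucleus is wound around octamers of histones H2A, H2B, H3 and H4, and linker histones of the H1 family bind where it enters and leaves. Variants replace the usual histones at chosen places and at any time in the cell cycle, each with chaperones or exchange machines of its own. H3.3 marks transcribed genes and silent repeats, H2A.Z flanks the start sites of active genes, H2AX is phosphorylated around broken DNA, and macroH2A carries a large extra domain and is enriched in silent chromatin.

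Of the 7 genes with probe sets of their own, the linker histone gene H1-10 and the H2A gene H2AJ rose with SB590885 against DMSO, by 3.11-fold and 1.40-fold. H1-10 has 1 probe set. The H2AJ rise was on 2 probe sets that can also bind other transcripts, while its other 2, with low signal, did not pass. H2AX was 1.30-fold higher without passing the test in that comparison, and it was 1.41-fold higher with SB590885 than with PD325901, which passed. A fit with the replicate number as a block, described below, called H2AX in both comparisons. With SB590885 against DMSO that fit called 4 of 7 genes higher, beside 9.09% of all genes. One H3.3 probe set also rose with SB590885. PD325901 against DMSO gave no call for any of the 31 probe sets, beside 0.346% of all probe sets called. Genes were called at a Benjamini-Hochberg adjusted p under 0.05 in limma. For the probe set that stands for a gene, the one with the highest mean, the adjustment was over 19775 genes of a comparison. For every other probe set, and for counts of probe sets, it was over 54613 probe sets. With SB590885 against DMSO, 2 of 7 genes rose and 0 fell (limma), beside 1.59% of all genes higher and 1.69% lower. At an unadjusted p under 0.05 there were 3 higher and 0 lower, beside 6.7% and 6.84% of all genes. The groups of 4 arrays did not overlap for 3 of the 7 genes, H1-10, H2AJ and H2AX, all higher, beside 4.45% of all genes. The median difference of the 7 genes was 0.18, and that of all genes was 0.00.

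Arrays 1 and 2 of each group differ from arrays 3 and 4, whose labels carry the letter R with no meaning given. On this mark alone 23.4% of all genes were higher and 32.1% lower at the same threshold. Same-numbered arrays deviated together from their group means, so a fit with the replicate number as a block is given where it changes the call of a member. That fit called 9.09% of all genes higher and 9.84% lower with SB590885 against DMSO, and 1.96% higher and 6.18% lower with PD325901 against DMSO. Array medians lay between 6.88 and 6.97, and the median of all probe sets, 6.92, serves below as the mark of a low signal. The number of arrays limits the precision. All 8 plasma cell markers checked were high on every array (SDC1 from 10.03 to 10.95, TNFRSF17 from 12.52 to 13.57), with a mean over the list of 10.87 to 11.13 with SB590885, 11.24 to 11.85 with PD325901 and 11.17 to 11.66 with DMSO. Markers under 6.92 on all 12 arrays were 1 of 3 for B cells, 2 of 6 for T and NK cells, 2 of 3 for monocytes, 2 of 4 for fibroblasts and 0 of 2 for red cells. Among the others CD22 read 7.08 to 7.30, CD8A 7.08 to 7.67, COL1A1 7.92 to 8.53 and HBB 8.59 to 9.36, and the part of these signals in the results was not tested. For GAPDH, the control probe set at the 3' end read above that at the 5' end, a gap that grows as RNA degrades, by 0.440 ± 0.035 (SB590885), 0.425 ± 0.057 (PD325901) and 0.371 ± 0.033 (DMSO; SD, n = 4 each). Its part in the differences below was not tested. In bulk RNA, fewer cells in a given state and less RNA per cell cannot be told apart.

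H1-10 encodes a linker histone also known as H1x, which binds the DNA between nucleosomes. Its 250 bases before the RefSeq start site (chr3:129316287-129316536, GRCh38.p14, minus strand) are shown because it is the member with the largest difference, with a match to TATAAA in capitals.
H1-10: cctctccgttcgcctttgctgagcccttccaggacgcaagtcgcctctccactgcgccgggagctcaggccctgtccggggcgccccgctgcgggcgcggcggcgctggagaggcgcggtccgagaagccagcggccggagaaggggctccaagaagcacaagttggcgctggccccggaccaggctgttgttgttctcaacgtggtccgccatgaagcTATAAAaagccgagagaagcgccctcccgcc
The match lies 31 to 26 bases before the start. TATAAA on the gene's strand was found in 6.8% of 35116 RefSeq windows of this length. The same window held no CCAAT on either strand, which 32% of windows hold.

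H1-10 read 10.59, 10.91, 10.51 and 10.27 on the 4 SB590885 arrays, 9.20, 9.47, 8.96 and 9.15 on the PD325901 arrays, and 8.80, 9.27, 8.68 and 8.99 on the DMSO arrays. All 4 SB590885 arrays stood above every PD325901 and DMSO array, while the PD325901 and DMSO arrays overlapped. The mean was 10.57 ± 0.27 with SB590885, against 8.93 ± 0.25 with DMSO (SD, n = 4 each), a difference of 1.64 (SE 0.15, 95% confidence interval 1.30 to 1.97, limma adjusted p = 0.000428). The 4 pairs of same-numbered arrays gave differences between 1.28 and 1.83. Ranked by rise among 19775 genes, H1-10 stood at place 8. Against PD325901, whose mean was 9.19 ± 0.21, SB590885 was higher by 1.38 (SE 0.15, limma adjusted p = 0.000893).

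PD325901 against DMSO gave a smaller difference for H1-10, 0.26 (95% confidence interval -0.08 to 0.60, limma adjusted p = 0.912), higher in 4 of 4 pairs. With the replicate block this difference passed over genes (limma adjusted p = 0.0416) and not over probe sets (limma adjusted p = 0.0546). It was 1 of 7 member genes called higher in that fit, beside 1.96% of all genes.

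**Figure D1:**
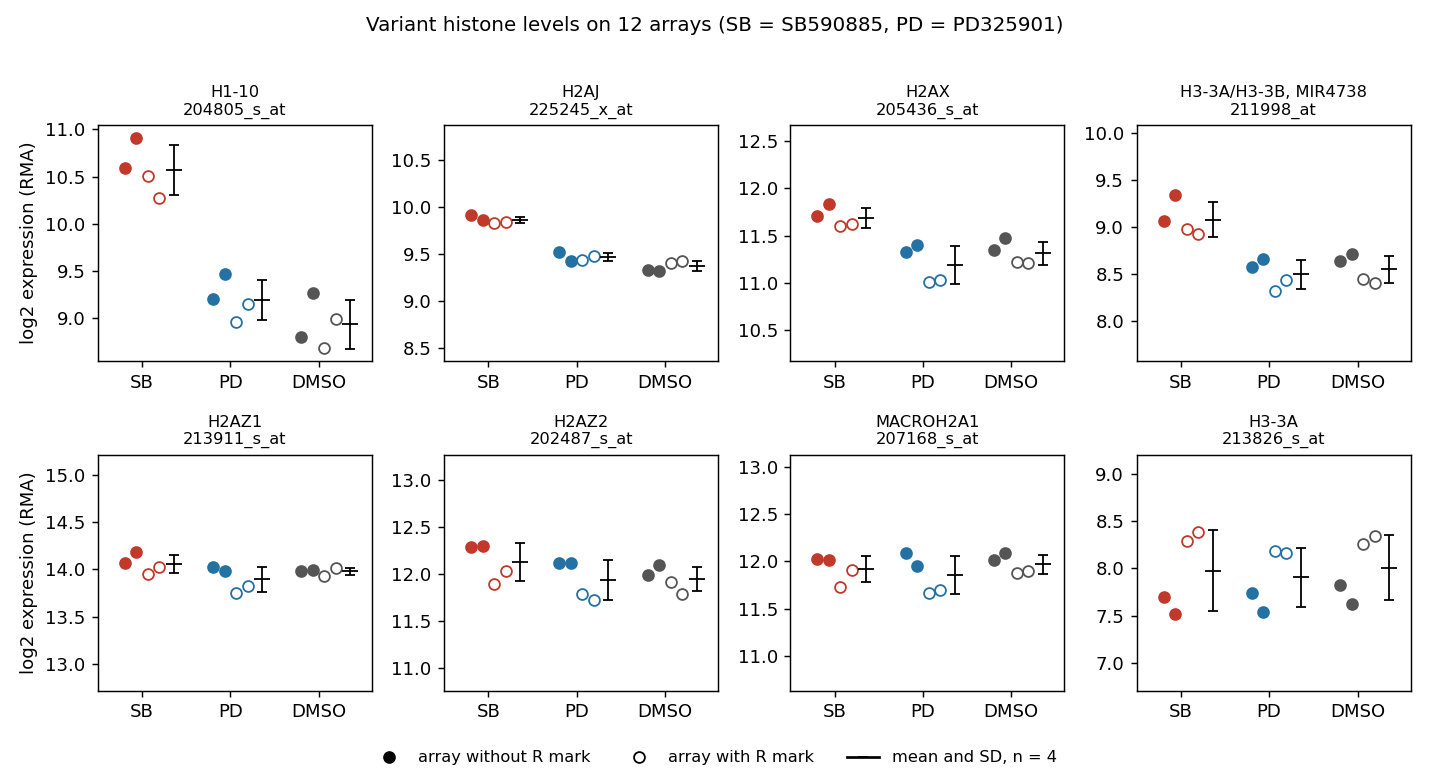
Log2 expression (RMA) of the representative probe set of 7 variant histone genes and of H3.3 probe set 211998_at, with SB590885 (SB), PD325901 (PD) and DMSO from left to right in each panel. Points are single arrays, open where the array carries the R mark, and the bar is the mean and SD of 4 arrays. Every panel spans the same range. H1-10 reads 10.27 to 10.91 with SB590885, above all other arrays, and the H3-3A points split by the R mark in every group.

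H2AJ encodes an H2A variant found in mammals that accumulates in senescent human fibroblasts, which have stopped dividing for good. Its upstream window (chr12:14774155-14774404, GRCh38.p14, plus strand) is printed as that of the other called gene, with CCAAT in capitals on either strand (ATTGG is the same motif on the opposite strand).
H2AJ: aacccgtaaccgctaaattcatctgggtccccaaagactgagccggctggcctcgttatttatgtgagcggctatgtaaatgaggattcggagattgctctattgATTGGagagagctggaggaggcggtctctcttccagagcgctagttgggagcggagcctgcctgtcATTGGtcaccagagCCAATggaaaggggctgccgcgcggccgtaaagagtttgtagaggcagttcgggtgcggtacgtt
It holds 3 such matches and no TATAAA.

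On probe set 225245_x_at H2AJ read 9.91, 9.86, 9.83 and 9.84 with SB590885, 9.52, 9.43, 9.44 and 9.48 with PD325901, and 9.33, 9.32, 9.41 and 9.43 with DMSO. The SB590885 arrays lay close together and above all the others, and the PD325901 and DMSO arrays overlapped. The mean of 9.86 ± 0.04 with SB590885, against 9.37 ± 0.05 with DMSO, gave a difference of 0.49 (SE 0.04, n = 4 each, limma adjusted p = 0.000301). Against PD325901 (9.47 ± 0.04) the difference was 0.40 (SE 0.04, limma adjusted p = 0.000696). PD325901 exceeded DMSO by 0.09 (95% confidence interval -0.00 to 0.19, limma adjusted p = 0.739).

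The 4 H2AJ probe sets did not act alike. 224301_x_at read 9.82, 9.77, 9.72 and 9.79 with SB590885, 9.40, 9.28, 9.47 and 9.28 with PD325901, and 9.22, 9.26, 9.27 and 9.34 with DMSO, and SB590885 exceeded DMSO by 0.50 (limma adjusted p = 0.00106). 228213_at read 6.52 to 6.67 with SB590885, 6.63 to 6.65 with PD325901 and 6.44 to 6.66 with DMSO, a difference of 0.04 between SB590885 and DMSO (limma adjusted p = 0.901). 220936_s_at read 6.69 to 6.83 with SB590885, 6.64 to 6.70 with PD325901 and 6.60 to 6.72 with DMSO, a difference of 0.11 between SB590885 and DMSO (limma adjusted p = 0.353). Both flat probe sets lay under 6.92 on every array. The suffix _x_at, which both risen probe sets carry, marks probes that can also bind other transcripts, and H2AJ is close in sequence to the clustered H2A genes. Of these, H2AC8 was higher by 1.82 with SB590885 than with DMSO (limma adjusted p = 0.000428). The part of such transcripts in the H2AJ signal was not tested.

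H2AX encodes the variant whose tail is phosphorylated next to DNA breaks. Its window (chr11:119095466-119095715, GRCh38.p14, minus strand), shown for comparison with H1-10, holds TATAAA and CCAAT matches, again in capitals.
H2AX: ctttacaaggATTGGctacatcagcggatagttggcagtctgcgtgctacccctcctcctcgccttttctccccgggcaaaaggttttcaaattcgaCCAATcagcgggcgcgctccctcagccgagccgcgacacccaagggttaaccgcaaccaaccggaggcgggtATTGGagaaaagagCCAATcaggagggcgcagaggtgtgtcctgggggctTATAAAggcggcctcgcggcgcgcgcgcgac
The TATAAA match lies 31 to 26 bases before the start, the same place as in H1-10, and there are 4 CCAAT matches on the 2 strands.

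On 205436_s_at H2AX read 11.71, 11.83, 11.60 and 11.62 with SB590885, 11.33, 11.40, 11.01 and 11.03 with PD325901, and 11.35, 11.47, 11.22 and 11.21 with DMSO. All SB590885 arrays were above all DMSO and PD325901 arrays, and each group was lower on its R-marked arrays. SB590885 averaged 11.69 ± 0.10 and DMSO 11.31 ± 0.12, a difference of 0.38 (95% confidence interval 0.16 to 0.59, n = 4 each) that did not pass (limma adjusted p = 0.061). The 4 pairs gave 0.36, 0.36, 0.38 and 0.41, and with the replicate block the same difference passed (limma adjusted p = 8.94e-05). The difference also passed within the arrays without the mark (0.36, limma adjusted p = 0.0132) and within those with it (0.40, limma adjusted p = 0.00572). Those fits had fewer arrays per group. Of all genes they called 2637 without the mark and 1066 with it, beside 649 in the fit of all arrays. Over all alternatives that leave out no array on its own, the adjusted p of this H2AX difference ran from 8.94e-05 to 0.182.

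Against PD325901 (11.19 ± 0.20) the SB590885 arrays were higher by 0.50 (SE 0.10, limma adjusted p = 0.0187), and the block gave limma adjusted p = 7.37e-06. Leaving out single arrays ended this call in 4 cases. The limma adjusted p was 0.056 with SB590885 replicate 1 out, 0.0681 with SB590885 replicate 2 out, 0.0503 with PD325901 replicate 3 out and 0.0549 with PD325901 replicate 4 out. PD325901 was lower than DMSO by 0.12 on the log2 scale (difference -0.12, 95% confidence interval -0.34 to 0.09), in 4 of 4 pairs, without passing (limma adjusted p = 0.979).

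Of the other H2AX probe sets, 212525_s_at read 7.52, 7.68, 7.74 and 7.69 with SB590885, 7.47, 7.34, 7.44 and 7.47 with PD325901, and 7.46, 7.47, 7.52 and 7.39 with DMSO. Its SB590885 arrays again lay above the rest, by 0.20 against DMSO (limma adjusted p = 0.0945, with the block limma adjusted p = 0.0189). Against PD325901 they were higher by 0.23 (limma adjusted p = 0.0567, with the block limma adjusted p = 0.00831). 213344_s_at read 8.31, 7.93, 8.94 and 8.91 with SB590885, 8.22, 7.96, 8.37 and 8.35 with PD325901, and 8.13, 7.81, 8.66 and 8.57 with DMSO. Its difference of 0.23 between SB590885 and DMSO was smaller than the gap between marked and unmarked arrays of a group, and did not pass (limma adjusted p = 0.873). Between SB590885 and PD325901 it gave 0.30, higher in 3 of 4 pairs (limma adjusted p = 0.784, with the block limma adjusted p = 0.0286). 212524_x_at, under 6.92 on average, differed by -0.03 between SB590885 and DMSO (limma adjusted p = 0.963).

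Of the genes listed around H2AX, for kinases, phosphatases and repair proteins of the response to broken DNA, 14 of 14 were measured. Not all of them act on H2AX itself. With SB590885 against DMSO 0 rose and 1 fell, beside 1.59% and 1.69% of all genes. The fallen gene was CHEK2, the checkpoint kinase activated by broken DNA. CHEK2 averaged 9.22 ± 0.08 with SB590885, against 9.75 ± 0.11 with DMSO, a difference of -0.54 (n = 4 each, limma adjusted p = 0.00807), and it was lower than with PD325901 by 0.62 (difference -0.62, limma adjusted p = 0.00323). TP53BP1, which binds chromatin around breaks, differed by -0.14 (limma adjusted p = 0.371) and the H2AX phosphatase gene EYA3 by -0.12 (limma adjusted p = 0.432). The block called 1 higher and 4 lower, beside 9.09% and 9.84% of all genes. With PD325901 against DMSO 0 of 14 passed, beside 0.592% of all genes, and the block called 2 higher and 3 lower, beside 1.96% and 6.18%.

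H3.3 is encoded by H3-3A and H3-3B, separate genes for the same protein. In the RefSeq table MIR4738 lies on chromosome 17 with 0 annotated genes between it and H3-3B, 4741 bases away. H3P6 is a transcribed pseudogene on chromosome 2. The accession of 211997_x_at is that of an H3-3B transcript, and no other accession listed for the 8 shared probe sets is in the table, so the signal is not divided between the 2 genes here. The H3-3B window (chr17:75779780-75780029, GRCh38.p14, minus strand) is shown beside those above, with the octamer ATGCAAAT and the other 2 motifs in capitals.
H3-3B: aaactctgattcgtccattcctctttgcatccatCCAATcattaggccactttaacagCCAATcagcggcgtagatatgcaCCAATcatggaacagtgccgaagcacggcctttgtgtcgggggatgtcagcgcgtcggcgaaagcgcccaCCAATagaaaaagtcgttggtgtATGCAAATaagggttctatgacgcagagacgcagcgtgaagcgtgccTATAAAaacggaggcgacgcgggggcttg
TATAAA lies 29 to 24 bases before the start and the octamer 76 to 69 bases before it, and there are 4 CCAAT matches. The octamer, searched on both strands, was in 1.63% of windows and in no window of another member. H2AZ1 was the only other member with TATAAA in its window, at 31 to 26 bases. These matches describe the sequences only.

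Of the 4 probe sets listed with MIR4738, 1 rose with SB590885 against DMSO, and of the 4 listed with H3P6, 0 passed (limma). Beside these counts, 1.01% of all probe sets were higher and 0.947% lower. The risen one, 211998_at, read 9.07, 9.34, 8.98 and 8.93 with SB590885, 8.58, 8.66, 8.32 and 8.44 with PD325901, and 8.64, 8.71, 8.45 and 8.41 with DMSO. The SB590885 arrays were above all others, and PD325901 overlapped with DMSO. The mean of 9.08 ± 0.18 with SB590885, against 8.55 ± 0.14 with DMSO, gave a rise of 0.53 (SE 0.10, 1.44-fold, n = 4 each, limma adjusted p = 0.024), with the block at limma adjusted p = 1.08e-05. Leaving out 1 of 5 arrays ended the call. The limma adjusted p was 0.0673 and 0.0635 with SB590885 replicate 1 and 2 out, and 0.0583, 0.0727 and 0.0717 with DMSO replicate 1, 3 and 4 out. Against PD325901 it was higher by 0.58 (limma adjusted p = 0.015).

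Of the other 3 probe sets listed with MIR4738, 209069_s_at read 13.04, 13.18, 12.86 and 12.87 with SB590885, 12.84, 12.91, 12.47 and 12.35 with PD325901, and 12.79, 12.91, 12.71 and 12.51 with DMSO. Its groups overlapped, and each SB590885 array was above the DMSO array of its number. Differences between SB590885 and DMSO were 0.26 for 209069_s_at (limma adjusted p = 0.508), 0.24 for 211997_x_at (limma adjusted p = 0.566) and 0.26 for 211999_at (limma adjusted p = 0.486), in 4 of 4 pairs each. With the replicate block all 3 passed, at limma adjusted p = 0.00551, 0.00911 and 0.00153 in that order, beside 6.56% of all probe sets higher. The block also called these 3 higher for SB590885 against PD325901, beside 8.83% of all probe sets. Those differences were 0.35, 0.37 and 0.36 (limma adjusted p = 0.000672, 0.0004 and 0.000122). The fit without the block gave limma adjusted p = 0.29, 0.248 and 0.256.

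The probe sets listed with H3P6, 200080_s_at, 208755_x_at, 211940_x_at and 213828_x_at, read between 13.77 and 14.42 over all arrays. SB590885 exceeded DMSO by 0.09, 0.12, 0.16 and 0.12, in 4 of 4 pairs each. Of these 4, 0 passed in limma, beside 1.01% of all probe sets higher. With the block 0 passed too (lowest limma adjusted p = 0.0693), beside 6.56%. Medians of the differences were 0.26 for the 4 probe sets with MIR4738 and 0.12 for the 4 with H3P6, beside 0.00 over all probe sets. With PD325901 against DMSO these medians were -0.09 and 0.00. The probe sets overlap in what they read, so they are not separate measurements of a gene, and whether the 2 sets differ was not tested.

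**Figure D2:**
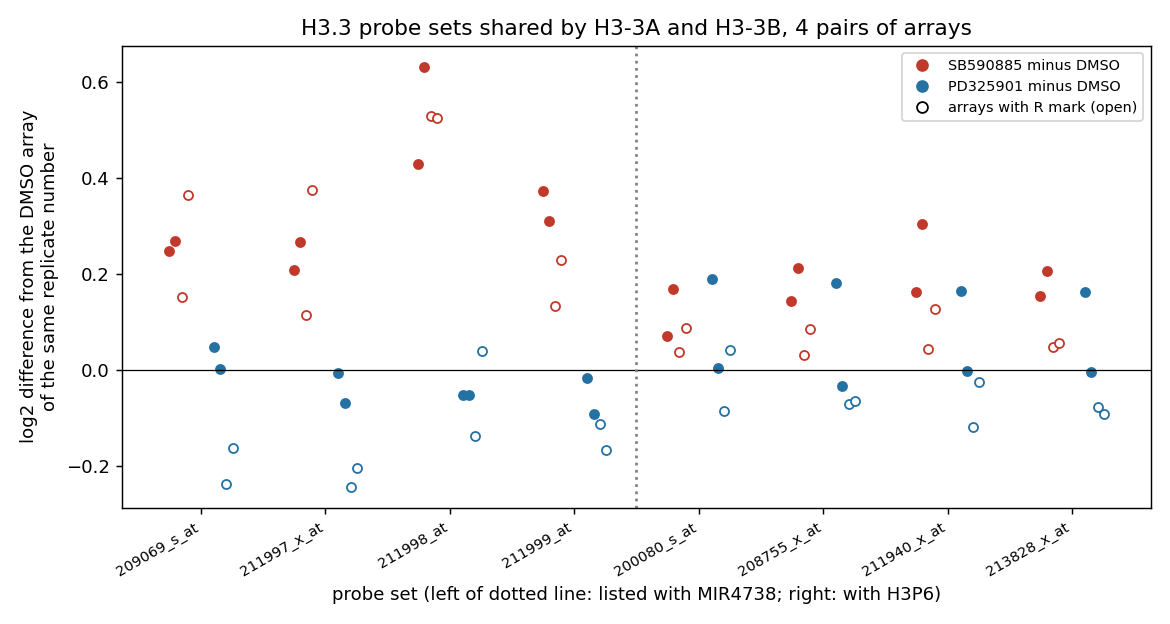
Log2 difference from the DMSO array of the same replicate number for the 8 probe sets shared by H3-3A and H3-3B, with SB590885 (red) left of PD325901 (blue) at each probe set. Each point is 1 pair of arrays, open where the pair carries the R mark. All SB590885 points of the 8 probe sets lie above 0, and those of 211998_at are the highest.

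H3-3A has 1 probe set of its own, 213826_s_at. It read 7.70, 7.52, 8.29 and 8.39 with SB590885, 7.74, 7.54, 8.18 and 8.16 with PD325901, and 7.82, 7.62, 8.26 and 8.34 with DMSO. Within every group the R-marked arrays 3 and 4 were the high ones, and the groups overlapped. SB590885 differed from DMSO by -0.03 (95% confidence interval -0.54 to 0.47, and -0.14 to 0.07 with the replicate block), and PD325901 from DMSO by -0.10 (95% confidence interval with the block -0.21 to 0.00). Neither passed in limma (adjusted p = 0.99 and 0.993).

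The genes that put H3.3 into chromatin were measured in 10 of 10 cases. With SB590885 against DMSO 1 rose and 0 fell, beside 1.59% and 1.69% of all genes. UBN2, a subunit of the HIRA chaperone complex, averaged 9.01 ± 0.24 with SB590885, against 8.55 ± 0.07 with DMSO, a rise of 0.47 (n = 4 each, limma adjusted p = 0.0293). ASF1B, which hands H3-H4 dimers to other chaperones, differed by 0.28 (limma adjusted p = 0.2, with the block limma adjusted p = 0.0013) and by 0.44 between SB590885 and PD325901, which passed (limma adjusted p = 0.0419). The block called 2 higher and 0 lower with SB590885 against DMSO, beside 9.09% and 9.84% of all genes. With PD325901 against DMSO the block called 0 higher and 1 lower, beside 1.96% and 6.18%. DAXX and ATRX, which place H3.3 in repeats, differed by -0.15 (limma adjusted p = 0.587) and 0.09 (limma adjusted p = 0.797) between SB590885 and DMSO. Of 10 measured enzymes that modify H3 lysines or ubiquitinate H2A, 0 passed against DMSO with either inhibitor in limma. Beside this, 1.59% of all genes were higher and 1.69% lower with SB590885, and 0.592% were called with PD325901. The block called 3 higher and 1 lower with SB590885, beside 9.09% and 9.84% of all genes, and 0 higher and 4 lower with PD325901, beside 1.96% and 6.18%. SETD2, which trimethylates a lysine of H3, was higher with SB590885 by 0.39 than with DMSO (limma adjusted p = 0.0809, with the block limma adjusted p = 5.29e-05) and by 0.49 than with PD325901 (limma adjusted p = 0.0333).

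H2A.Z is encoded by H2AZ1 and H2AZ2. H2AZ1 on 213911_s_at read 14.07, 14.18, 13.95 and 14.03 with SB590885, 14.03, 13.98, 13.75 and 13.82 with PD325901, and 13.98, 13.99, 13.93 and 14.02 with DMSO. The groups overlapped. SB590885 differed from DMSO by 0.08 (95% confidence interval -0.07 to 0.22, limma adjusted p = 0.806) and PD325901 from DMSO by -0.08 (-0.23 to 0.07, limma adjusted p = 0.979). SB590885 exceeded PD325901 by 0.16 (limma adjusted p = 0.339). With the block this passed over genes (limma adjusted p = 0.0423) and not over probe sets (limma adjusted p = 0.0505). The second probe set, 200853_at, gave 0.11 between SB590885 and DMSO (limma adjusted p = 0.738). Between SB590885 and PD325901 it gave 0.18 (limma adjusted p = 0.436, with the block limma adjusted p = 0.0235).

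H2AZ2 on 202487_s_at read 12.29, 12.30, 11.90 and 12.03 with SB590885, 12.12, 12.12, 11.79 and 11.73 with PD325901, and 11.99, 12.10, 11.92 and 11.79 with DMSO. The unmarked SB590885 arrays were the highest of the 12, and the groups overlapped. The difference between SB590885 and DMSO was 0.18 (95% confidence interval -0.08 to 0.44, limma adjusted p = 0.634) and passed with the block (limma adjusted p = 0.0288). SB590885 exceeded PD325901 by 0.19 (limma adjusted p = 0.603, with the block limma adjusted p = 0.021). Its other probe sets, 212205_at, 212206_s_at and 227085_at, gave 0.27, 0.18 and 0.14 between SB590885 and DMSO, the same direction. Of these 3, 0 passed in limma without the block, beside 1.01% of all probe sets higher. The block called 1, 212205_at (limma adjusted p = 0.015), beside 6.56%. On 212205_at SB590885 also exceeded PD325901, by 0.23 (limma adjusted p = 0.695, with the block limma adjusted p = 0.0361). PD325901 differed from DMSO by -0.01 on 202487_s_at and by 0.03 to 0.04 on the others.

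All 18 listed genes of the machines that exchange H2A.Z for H2A were measured. With SB590885 against DMSO 2 rose and 1 fell, beside 1.59% and 1.69% of all genes. EP400, the ATPase of the TIP60 complex, averaged 8.95 ± 0.12 with SB590885, against 8.65 ± 0.05 with DMSO, a rise of 0.30 (n = 4 each, limma adjusted p = 0.019). KAT5, the acetyltransferase of the same complex, rose by 0.26 (limma adjusted p = 0.0277). RUVBL1, an ATPase shared by several remodellers, averaged 10.25 ± 0.08 with SB590885, against 10.70 ± 0.15 with DMSO, a difference of -0.45 (limma adjusted p = 0.0296). Between SB590885 and PD325901, EP400 (0.41, limma adjusted p = 0.00369) and KAT5 (0.25, limma adjusted p = 0.0379) were again higher, and RUVBL1 differed by -0.10 (limma adjusted p = 0.833). The block called 7 higher and 1 lower against DMSO, beside 9.09% and 9.84% of all genes. With PD325901 against DMSO 0 of 18 passed, beside 0.592% of all genes, and the block called 0 higher and 1 lower, beside 1.96% and 6.18%.

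MACROH2A1 encodes macroH2A1, and its representative probe set 207168_s_at read 12.03, 12.02, 11.73 and 11.91 with SB590885, 12.09, 11.95, 11.67 and 11.70 with PD325901, and 12.01, 12.09, 11.88 and 11.90 with DMSO. The groups overlapped, and SB590885 differed from DMSO by -0.05 (95% confidence interval -0.27 to 0.17, limma adjusted p = 0.956) and PD325901 from DMSO by -0.12 (-0.34 to 0.10, limma adjusted p = 0.979). Of its 7 probe sets, 0 passed for SB590885 against DMSO in limma, beside 1.01% of all probe sets higher and 0.947% lower. With the block 0 passed too, beside 6.56% and 6.83%. The 7 differences ran from -0.13 to 0.18. At the upper end, 226840_at read 7.57, 7.71, 7.29 and 7.24 with SB590885, 7.31, 7.24, 7.17 and 7.25 with PD325901, and 7.26, 7.29, 7.30 and 7.24 with DMSO. There SB590885 was above DMSO by 0.37 on the unmarked arrays (limma adjusted p = 0.00918). On the marked ones the difference was -0.00 (limma adjusted p = 0.999). The difference between these effects did not pass (limma adjusted p = 0.229), in a test that called only 6 of all probe sets. 1558779_at and 1558780_a_at were under 6.92 on average.

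**Figure D3:**
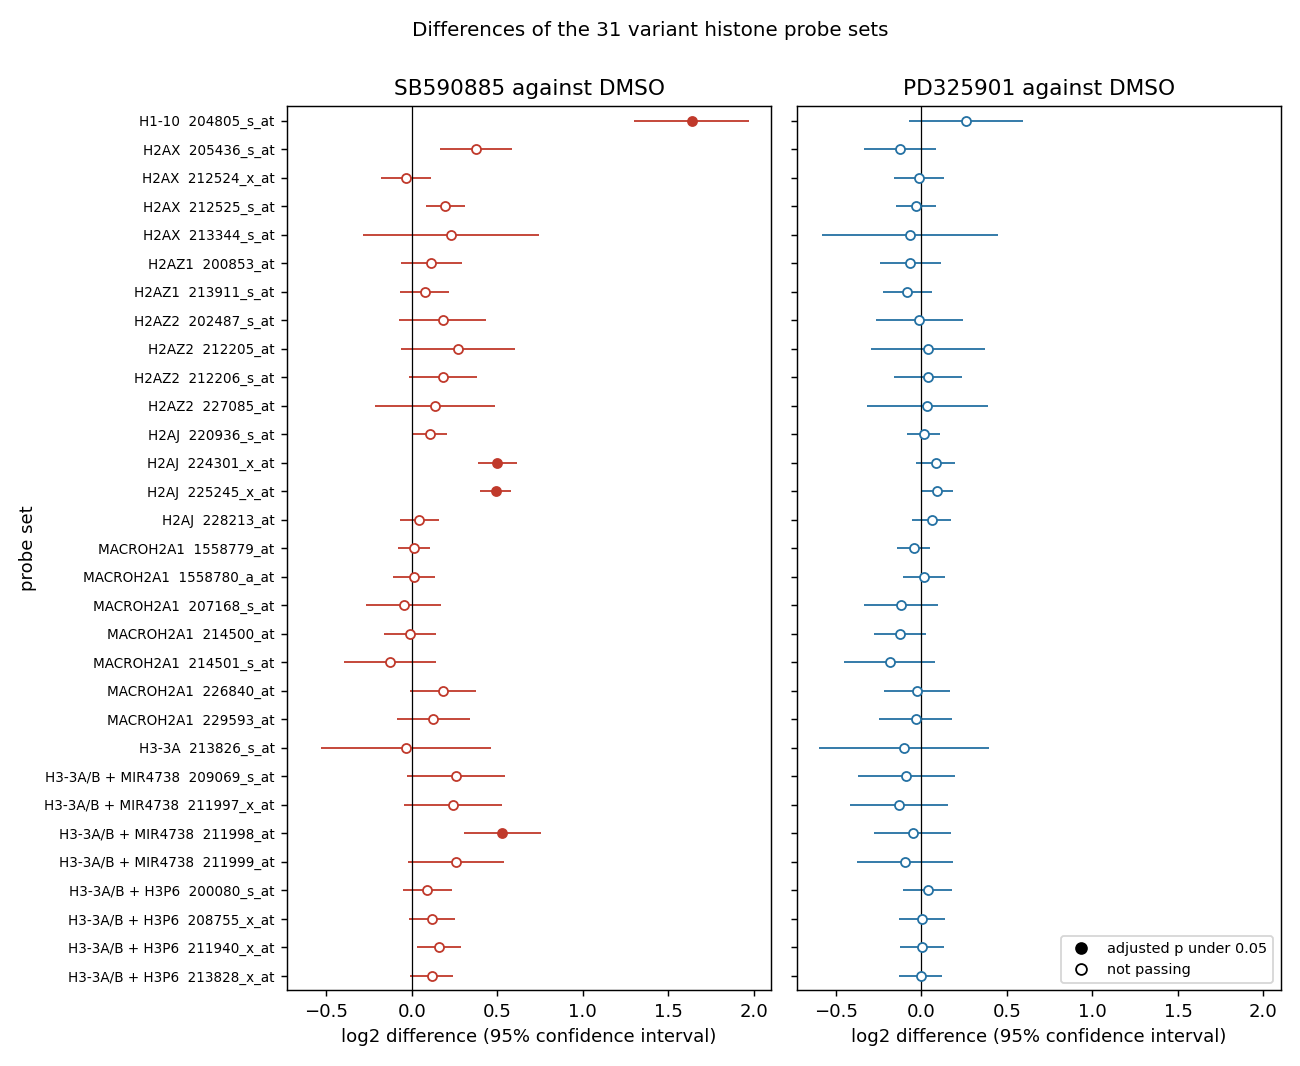
Log2 difference of each of the 31 variant histone probe sets, SB590885 against DMSO on the left and PD325901 against DMSO on the right. Points are limma estimates with 95% confidence intervals over 4 arrays a group, filled where the adjusted p over all probe sets is under 0.05. The filled points are H1-10, 2 probe sets of H2AJ and 211998_at, all with SB590885.

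Over all 31 probe sets, 4 rose and 0 fell with SB590885 against DMSO in limma, beside 1.01% of all probe sets higher and 0.947% lower, and the replicate block called 11 higher and 0 lower, beside 6.56% and 6.83%. Without the _x_at probe sets and those under 6.92 on average, an alternative chosen after seeing the data, 2 of 20 rose. The share of all probe sets chosen in that way was not counted. The groups did not overlap for 6 of 31, all higher, beside 3.84% of all probe sets. SB590885 against PD325901 gave 5 higher and 0 lower, beside 1.23% and 0.555%, and 13 and 0 with the block, beside 8.83% and 4.05%. At the gene level that comparison had 3 of 7 higher, beside 1.97% of all genes, and 5 of 7 with the block, beside 12.4%.

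PD325901 against DMSO called 0 of 31 probe sets in limma, beside 0.346% of all probe sets, and 0 with the block, beside 4.81%. At an unadjusted p under 0.05 it had 1, 225245_x_at of H2AJ, which was higher, beside 1.98% of all probe sets higher. Of the 7 genes 0 passed, beside 0.592% of all genes, 0 had an unadjusted p under 0.05 (beside 2.07% of all genes higher and 4.73% lower), and their median difference was -0.08, beside -0.00 for all genes. Both inhibitors are compared with the same 4 DMSO arrays.

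The members also split by the R mark, as did a large part of all probe sets. With group in the fit, 16 of 31 probe sets were lower on the 6 marked than on the 6 unmarked arrays and 3 were higher (limma adjusted p under 0.05), beside 25.4% and 20.7% of all probe sets. H3-3A was higher on marked arrays by 0.61 (limma adjusted p = 6.7e-07), while H2AZ2 (-0.29), H1-10 (-0.28), MACROH2A1 (-0.23), H2AX (-0.23) and H2AZ1 (-0.12) were lower and H2AJ differed by 0.01 (limma adjusted p = 0.835). Within H2AX, 213344_s_at was higher on marked arrays by 0.57 (limma adjusted p = 0.000114) where 205436_s_at was lower, so probe sets of the same gene went opposite ways. The 4 H3.3 probe sets with MIR4738 differed by -0.24 to -0.33, and 0 of the 4 with H3P6 passed (limma), at -0.09 to 0.03. Whether the treatment effect itself differed between marked and unmarked arrays was tested for all 31 probe sets in each of the 3 comparisons. In limma 0 passed (lowest adjusted p = 0.165). Of all probe sets, that test called 6 for SB590885 against DMSO, 0 for PD325901 against DMSO and 23 for SB590885 against PD325901. With so few calls anywhere, 0 of 31 does not show that the members' effects were alike on marked and unmarked arrays. What the mark stands for, and its part in these values, was not tested.

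**Figure D4:**
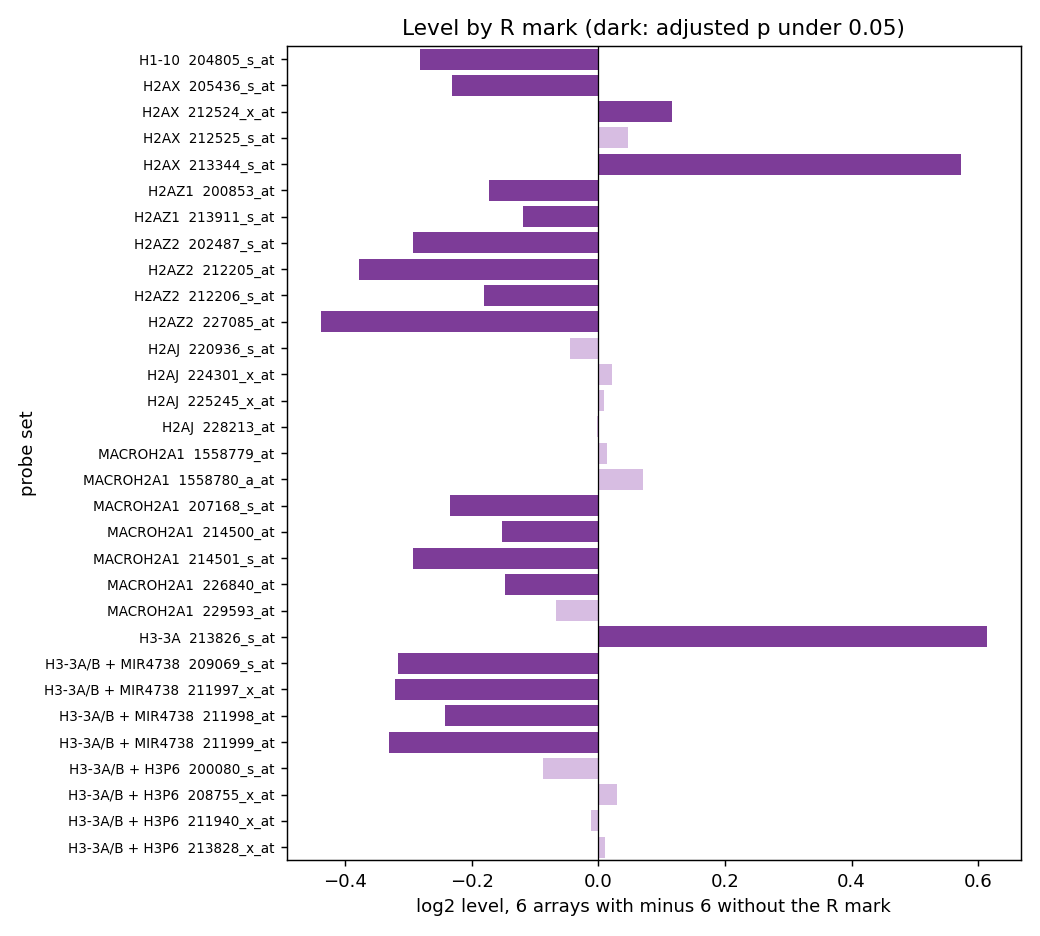
Log2 level on the 6 arrays with the R mark minus that on the 6 arrays without it, with group in the fit, for each of the 31 probe sets. Dark bars have a limma adjusted p under 0.05. The bars of H3-3A (0.61) and of H2AX 213344_s_at (0.57) point right, and 16 dark bars point left.

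General histone chaperones, 12 of 12 measured, and factors that process the ends of clustered histone mRNAs, also 12 of 12, had 0 passing with either inhibitor against DMSO in limma. Beside this, 1.59% of all genes were higher and 1.69% lower with SB590885, and 0.592% were called with PD325901. The block called 0 higher and 3 lower chaperones with SB590885 (beside 9.09% and 9.84% of all genes) and 0 higher and 4 lower with PD325901 (beside 1.96% and 6.18%). With SB590885 these included NPM3 of the nucleoplasmin family (-0.51, limma adjusted p = 0.077, with the block limma adjusted p = 7.69e-05) and the nucleolin gene NCL (-0.22, limma adjusted p = 0.134, with the block limma adjusted p = 0.0148). Among the end-processing factors the block called 1 higher and 3 lower with SB590885, and 0 higher and 4 lower with PD325901. The shares of all genes beside these counts are those given for the block with the chaperones. CSTF2, a cleavage factor subunit, differed by -0.32 (limma adjusted p = 0.0867, with the block limma adjusted p = 0.000791). Of 12 other variant histone genes listed, 6 were measured and 0 passed in any comparison (limma), with or without the block. The shares of all genes against DMSO are those above. For SB590885 against PD325901, 1.97% of all genes were higher, and 12.4% with the block.

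Of the 6 linker histone genes of the clusters, 2 rose with SB590885 against DMSO and 0 fell, beside 1.59% and 1.69% of all genes. H1-2 averaged 12.37 ± 0.37 with SB590885, 10.94 ± 0.27 with PD325901 and 11.07 ± 0.14 with DMSO (SD, n = 4 each). It rose by 1.30 against DMSO (limma adjusted p = 0.00381), beside 1.64 for H1-10. H1-4 rose by 0.32 (limma adjusted p = 0.035), and H1-5 differed by 0.14 (limma adjusted p = 0.431). Of all 42 clustered histone genes measured, 18 rose and 0 fell, beside those same shares of all genes. This result was already known when the members were chosen.

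**Figure D5:**
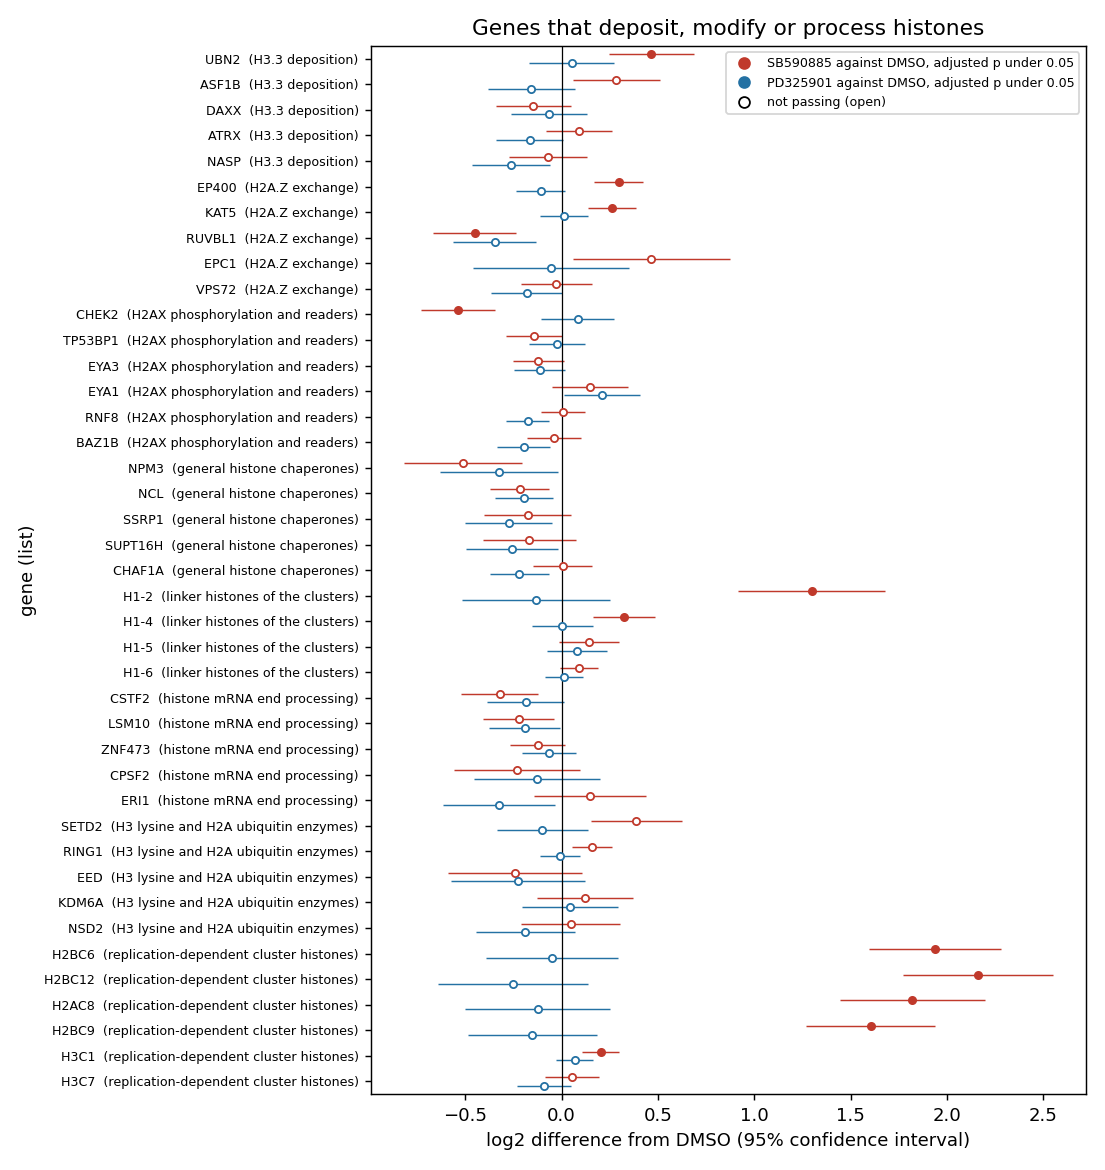
Log2 difference from DMSO with SB590885 (red, upper point) and PD325901 (blue, lower point) for the named genes of the lists around the variant histones, with limma 95% confidence intervals over 4 arrays a group. Filled points have an adjusted p under 0.05. Outside the clustered histone genes, UBN2, EP400 and KAT5 are filled to the right of 0 and RUVBL1 and CHEK2 to the left. The clustered linker genes H1-2 and H1-4 are filled to the right too, and all of these are SB590885 points.

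Among 12512 genes with a mean of at least 6.92, those whose values over the 12 arrays were most like a member's were listed for the 3 members called in any comparison. The arrays share treatment groups and the R mark, so the correlations describe these arrays and carry no p. For H1-10 they were SLC30A4 (r = 0.979), HEIH (r = 0.975) and RRAGC (r = 0.974). H2AX was closest to IFFO1 (r = 0.984), GARS1 (r = 0.980) and AUNIP (r = 0.977). H2AJ was closest to PEX39 (r = 0.970), SPSB3 (r = 0.964) and the clustered H2B gene H2BC6 (r = 0.954).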

How the data were processed

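The authors deposited RMA values on the log2 scale, 1 per probe set and array. RMA and R 3.0.1 are named in the submitters' processing notes, and no source used here says whether all 12 arrays were normalised together. Per the labels' protocols, 300000 cells were treated and 100 ng of RNA was amplified per array. The labels give 4 arrays in each of 3 groups. All per-sample columns were used. Of 54675 probe sets, 62 controls were left out. Of the rest, 41091 had 1 symbol in the platform annotation, 1801 several and 11721 none. Symbols were updated through gene identifiers. A gene was its probe set with the highest mean, which compared 19775 genes.

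The fits used limma 3.58.1 (R 4.3.3) on the log2 values as deposited: a group-means model over 12 arrays, empirical Bayes without trend, Benjamini-Hochberg adjustment over all genes or all probe sets, threshold 0.05. The script was tested on simulated data. Members, lists and tests were chosen with earlier results of these data known.

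The labels number the arrays of a group 1 to 4. Arrays of different groups with the same number had correlated deviations from their group means (0.544 to 0.913, 12 pairs; other numbers -0.718 to 0.646), and for 12 of 12 arrays the closest partner carried the same number. The numbers therefore pair the arrays, and fits with a replicate block are given where they change the call of a member. Other alternatives were the R mark as a term or as separate sets, centring, quantile normalisation, an intensity trend, array weights, fits of 2 groups, other choices of probe set, and arrays left out. No arrays of a group held identical values.

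The text names all members. From each list it could name the 4 genes with the smallest p for SB590885 against DMSO and 2 for PD325901 against DMSO, and for each called member the 3 genes with the highest correlation. Promoter sequences come from RefSeq (GRCh38.p14), 250 bases before the start, and all 8 genes matched.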

Additional observations from a re-analysis of the deposited data

How the results depend on the processing

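The calls of H1-10 for SB590885 against DMSO and against PD325901 held under all 24 alternatives run. H2AJ lost its call against DMSO with only _at probe sets (0.04, adjusted p = 0.911); against PD325901 it lost it with quantile normalisation (adjusted p = 0.0718) and turned to -0.014 with only _at probe sets. The cause was not tested. Member genes called for SB590885 against DMSO were 2, and 4 with the replicate block, the R mark as a term, only arrays without the mark or quantile normalisation. Against PD325901 they were 3, and 5 with the block or the R mark term. With only _at probe sets both counts were 0, but 3 of the 7 genes, H1-10, H2AX and H3-3A, have no such probe set and were not in that alternative. PD325901 against DMSO had 0, and 1 with the block. Leaving out single arrays gave 2 to 3, 2 to 3 and 0 to 0.

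Member probe sets called for SB590885 against DMSO were 4, and 11 with the block or the R mark term, 8 on unmarked arrays, 10 with quantile normalisation and 2 without low and _x_at probe sets. Against PD325901 they were 5, and 13 with the block, 12 with the R mark term, 9 and 10 on unmarked and marked arrays, 8 with quantile normalisation, 3 with only the 2 groups and 3 without low and _x_at probe sets. Single arrays left out gave 3 to 4, 4 to 5, and 0 to 0 for PD325901 against DMSO. 211998_at lost its call against DMSO with centring (adjusted p = 0.0823) or without replicate 2 of all groups (adjusted p = 0.0656), and against PD325901 with only the 2 groups (adjusted p = 0.0511). H2AX against PD325901 lost it with centring (adjusted p = 0.064), when only the 2 groups entered (adjusted p = 0.0621) and when its probe sets were averaged (adjusted p = 0.0626), where the difference was 0.25 in place of 0.50. Averaged probe sets gave H2AJ 0.29 against DMSO and 0.22 against PD325901, in place of 0.49 and 0.40, both still passing.

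Of all genes, 649 were called for SB590885 against DMSO (315 higher, 334 lower). The block gave 3742, the R mark term 3331, unmarked arrays 2637, marked arrays 1066, centring 382 (143 higher, 239 lower), quantile normalisation 1632, the intensity trend 432, array weights 1599 and all arrays of replicate 2 left out 78. Without SB590885 replicate 1 or 2 it was 288 or 260, and without DMSO replicates 1 to 4 it was 245, 335, 387 and 393, in a range of 245 to 691. For PD325901 against DMSO the count was 117 (17 higher, 100 lower), with 1610, 1289, 186 and 1079 under the block, the mark term, unmarked and marked arrays, 349 with quantile normalisation (173 higher, 176 lower), 194 with array weights (66 higher, 128 lower), 63 with replicate 2 left out, and 72 to 126 with single arrays left out, 72 without DMSO replicate 2. For SB590885 against PD325901 it was 558 (389 higher, 169 lower), with 3582, 3187, 2358 and 1770 under the block, the mark term, unmarked (1261 higher, 1097 lower) and marked arrays, 307 centred, 1558 with quantile normalisation (878 higher, 680 lower), 1352 with array weights (751 higher, 601 lower), 225 with the 2 groups, 180 with replicate 2 left out, and 281 to 509 with single arrays left out (305 and 281 without SB590885 replicates 1 and 2, 370 without PD325901 replicate 4).

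Apart from H2AJ above, the directions that turned were of differences that did not pass. For PD325901 against DMSO these were H2AZ1 on unmarked arrays (0.022), H2AZ2 on unmarked arrays (0.074), with quantile normalisation (0.070), array weights (0.076), the mean of its probe sets (0.025) and only _at probe sets (0.039), 209069_s_at on unmarked arrays (0.025) and with array weights (0.0026), and 211998_at with quantile normalisation (0.0064). MACROH2A1 for SB590885 against DMSO turned with quantile normalisation (0.030), the mean of its probe sets (0.021) and only _at probe sets (0.13). H3-3A turned on marked arrays for SB590885 against DMSO (0.041) and on unmarked arrays against PD325901 (-0.032). Single arrays left out moved H2AZ2 between -0.074 and 0.059, 209069_s_at between -0.18 and 0.011, 211998_at between -0.10 and 0.010 and H3-3A between -0.23 and 0.018 for PD325901 against DMSO, MACROH2A1 between -0.085 and 0.018 and H3-3A between -0.17 and 0.12 for SB590885 against DMSO, and H3-3A between -0.070 and 0.22 for SB590885 against PD325901. Signals near the bottom of the scale limit what the 5 probe sets under the median can show.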
